A study of Mus musculus with 18 samples.

Results

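The caput epididymis is the head of the epididymis, the duct in which sperm leaving the testis mature. Its principal cells secrete proteins such as Gpx5 and the beta-defensins into the lumen, and it receives sperm through the efferent ducts, whose lining includes ciliated cells. Ethanol is oxidised to acetaldehyde and acetate, largely by alcohol and aldehyde dehydrogenases and by Cyp2e1. Immediate early genes such as Fos are transcribed within minutes of a stimulus, including the handling of a tissue.

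The comparison asked whether the effect of 6% EtOH on caput RNA differed between mice sampled after cessation and mice sampled at 10 weeks. It is the log2 difference between 6% EtOH and control after cessation minus the same difference at 10 weeks, called the interaction here, so a positive value means a higher 6% EtOH effect after cessation. It used 12 of the 18 libraries of the series, 3 in each of 4 groups: 6% EtOH cessation, control cessation, 6% EtOH 10 weeks and control 10 weeks. All were C57BL/6J caput samples, and the titles put cessation at 1 month. The labels used here do not give the route of ethanol, the age of the mice or the length of treatment before cessation. They do not state that the 3 libraries of a group came from separate mice, so p-values measure the spread between libraries. That spread was estimated for each gene over all 18 libraries, those of 10% EtOH included. The members are all expressed genes: 18618 of the 53819 gene entries passed the filter on low counts.

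The 12 libraries held 10719300 to 19408100 counted reads. The biological coefficient of variation, the typical spread of a gene between libraries of a group, was 30.0% in 6% EtOH cessation, 35.2% in control cessation, 14.5% in 6% EtOH 10 weeks and 11.7% in control 10 weeks. The principal cell markers were abundant in every library, with Gpx5 at 16810 to 49964 CPM (a gene's reads scaled by library size) and Adam7 at 8511 to 22050 CPM. The adipocyte markers Adipoq and Plin1 were at or near 0, from 0 to 3.20 and from 0 to 2.56 CPM. In 6% EtOH cessation replicate 1, the label and the count table carried different identifiers, so whether that table belongs to the labelled sample is in doubt. Without it edgeR also called 0 genes for the interaction, with 431 (2.25%) at an unadjusted p under 0.05. Values without it are given beside some of the results, not all.

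No gene passed the interaction test at an adjusted p under 0.05, which is 0% of the genes tested (edgeR quasi-likelihood test, Benjamini-Hochberg adjustment, smallest adjusted p 0.9996). Without adjustment, 561 genes (3.01% of those tested) had a p under 0.05, against 930.9 that a uniform p would give. Of these, 291 (1.56%) lay above 0 and 270 (1.45%) below 0. DESeq2, limma voom and voom with weights for each group's spread also called 0 genes, with 718, 659 and 654 at an unadjusted p under 0.05. Over all tested genes 50.2% of values lay above 0 and 49.8% below 0, and the median was 0.00.

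The precision limits what this absence shows. For the 13231 genes whose log2 CPM averaged 1 or more, the median standard error (SE) was 0.28 and the 95% interval typically reached 0.59 to either side (median) on the log2 scale. The interval lay wholly between -1 and 1 for 8428 of them (63.7%). For 4801 others it held -1 or 1, a 2-fold difference between the effects, and for 2, Fos and Gm22973, it lay wholly beyond. The intervals are not adjusted for the number of genes, and neither Fos nor Gm22973 passed the test.

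By edgeR, neither effect that makes up the interaction had a gene past the threshold. After cessation edgeR called 0 genes (0%), with 301 (1.62%) at an unadjusted p under 0.05. At 10 weeks it called 0 genes (0%), with 440 (2.36%) at that level. DESeq2 called 1 gene after cessation, Iqcg, and 0 at 10 weeks, with 387 and 582 genes at an unadjusted p under 0.05. limma voom called 0 in both, with 350 and 514. With voom weights for the spread of each group it again called 0 in both, with 67 after cessation and 2209 at 10 weeks, where the smallest adjusted p was 0.132. Over 18618 tested genes a uniform p would give 930.9 at that level. The 10-week count of the weighted fit lay above this, and the other counts given here lay below it. Across genes the effects, which share no library, had a Pearson correlation of -0.14, and 42.0% of genes had the same sign in both. Genes are not independent replicates, and this is a description only.

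**Figure D1:**
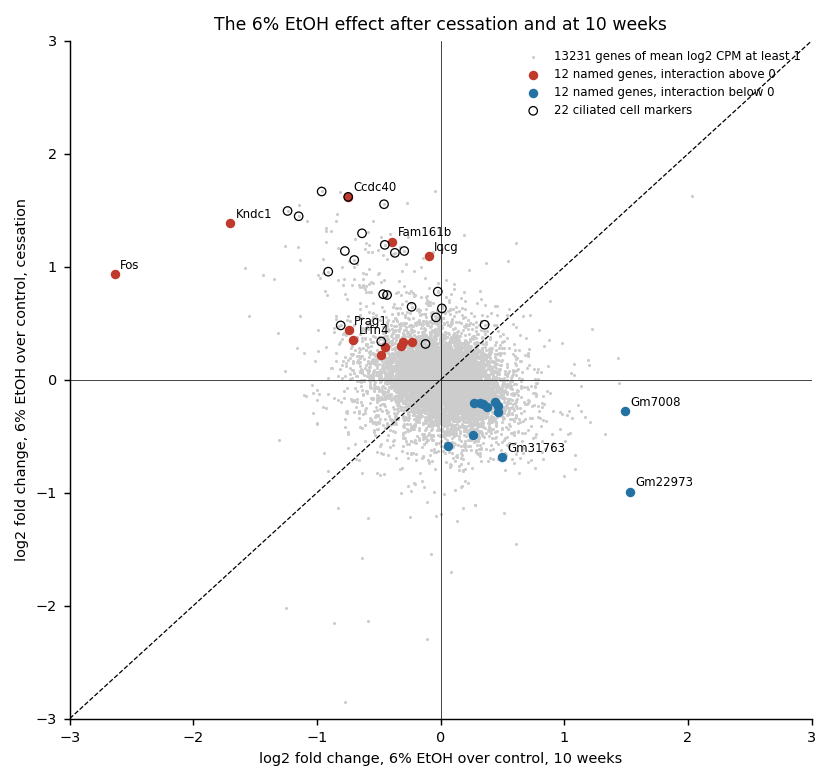
Each point is a gene, with the log2 fold change of 6% EtOH over control at 10 weeks on the x axis and after cessation on the y axis, for 13231 genes. The distance from the dashed line is the interaction, and the 22 open circles, the ciliated cell markers, all lie above that line.

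The 24 genes named are the 12 of smallest p in each direction whose log2 CPM averaged 1 or more and which had the same sign in each of 12 fits that left out 1 library. None passed the threshold: edgeR's adjusted p was 0.9996 for each. They were picked by their p, which favours groups that do not overlap, so their size and the overlap of their groups are a description. The share of all tested genes without overlap is not given here.

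Lrfn4, a synaptic adhesion-like protein, had the smallest p of the interaction. Its level was 9.75, 7.75 and 8.30 CPM in 6% EtOH cessation, against 6.29, 6.75 and 7.14 CPM in control cessation. At 10 weeks it was 7.20, 6.62 and 5.87 CPM in 6% EtOH, against 10.5, 9.91 and 11.7 CPM in control. The ethanol libraries were the higher ones after cessation and the lower ones at 10 weeks, with no overlap at either time. Its interaction was 1.06 ± 0.26 (SE, n = 3 a group, edgeR adjusted p = 0.9996), from a cessation effect of 0.35 and a 10-week effect of -0.71.

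Iqcg, a component of the regulatory complex of ciliary dyneins, was the gene DESeq2 called after cessation. It measured 13.5, 7.75 and 9.53 CPM in 6% EtOH cessation, against 4.51, 4.85 and 5.09 CPM in control cessation, with no overlap. At 10 weeks it measured 5.61, 6.62 and 6.47 CPM in 6% EtOH, against 7.55, 5.97 and 6.48 CPM in control, with overlap. The interaction was 1.19 ± 0.30 (SE), and 0.91 without 6% EtOH cessation replicate 1, the library whose label is in doubt. The cessation effect was 1.09, with an adjusted p of 0.0159 by DESeq2 and 1 by edgeR. DESeq2 was not run without that library.

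Fos, a subunit of the transcription factor AP-1, had the highest interaction of the 24. Its level was 160, 144 and 112 CPM in 6% EtOH cessation, against 58.9, 40.9 and 118 CPM in control cessation. At 10 weeks it was 1.21, 1.51 and 1.47 CPM in 6% EtOH, against 1.69, 2.31 and 22.4 CPM in control. Control 10 weeks replicate 3 stood far above the other control libraries of that time. The interaction was 3.57 ± 1.05 (SE) and came to 1.45 without that library. Each cessation library, ethanol or control, held more Fos than each 10-week library.

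The other named genes above 0 had interactions from 0.56 to 3.08. Ccdc40, needed for assembly of motile cilia, and Fam161b, of a family of ciliary and centrosomal proteins, were at 2.37 ± 0.80 and 1.61 ± 0.55 (SE). Kndc1, a Ras guanine exchange factor family protein, was at 3.08 ± 1.02, with 11.8 CPM in 6% EtOH cessation replicate 1 and 3.15 and 2.55 CPM in replicates 2 and 3. Without replicate 1, Kndc1 came to 2.03 and Ccdc40 to 1.58. Fan1, a nuclease of DNA crosslink repair, had 14.5, 13.4 and 14.9 CPM in 6% EtOH cessation, against 12.4, 10.98 and 10.6 CPM in control cessation. At 10 weeks Fan1 had 11.4, 11.1 and 11.3 CPM in 6% EtOH, against 14.5, 14.1 and 13.2 CPM in control. The Fan1 groups did not overlap at either time, and its interaction was 0.64 ± 0.19. Prag1, Rdh13, Znrf1, Fbxl19 and Mbd6 were at 1.18, 0.70, 0.56, 0.74 and 0.62.

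Among the 12 below 0, Ndufb1, a subunit of respiratory complex I, had 38.7, 57.7 and 62.2 CPM in 6% EtOH cessation, against 65.1, 68.8 and 59.3 CPM in control cessation. At 10 weeks Ndufb1 had 58.9, 62.2 and 58.5 CPM in 6% EtOH, against 47.2, 43.6 and 39.3 CPM in control. The groups overlapped after cessation and were apart at 10 weeks, with the 6% EtOH libraries higher. The interaction was -0.75 ± 0.22 (SE).

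Mrps22, a protein of the mitochondrial ribosome, had 10.2, 10.4 and 8.77 CPM in 6% EtOH cessation, against 14.1, 12.8 and 14.2 CPM in control cessation. At 10 weeks it had 11.2, 10.8 and 11.9 CPM in 6% EtOH, against 9.70, 10.6 and 7.98 CPM in control. Both times had no overlap, lower in 6% EtOH after cessation and higher at 10 weeks, and the interaction was -0.75 ± 0.22 (SE). Siah1a, a ubiquitin ligase, differed mainly after cessation, with an effect of -0.59 there and 0.06 at 10 weeks.

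The other named genes below 0 were Psma3, an alpha subunit of the proteasome core (-0.47 ± 0.16), and H4c3, a histone H4 gene (-0.70 ± 0.22). They also included Cr1l, a complement regulator (-0.52 ± 0.16), Ginm1 (-0.61), Ttc1 (-0.55) and Acyp1, an acylphosphatase (-0.64). The gene models Gm22973, Gm7008 and Gm31763 were at -2.52, -1.77 and -1.18. Gm31763 had 12.1, 12.03 and 25.6 CPM in control cessation, and came to -0.72 without replicate 3 of that group. The median annotated transcript length was 2454 bases for the named genes above 0 and 1098 bases for the 10 of 12 below 0 with a length, against 1798 bases over all genes with one. Across 12978 genes the interaction had a Spearman correlation of 0.18 with length and 0.27 with GC content. The part of length and GC content in the named genes was not tested.

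**Figure D2:**
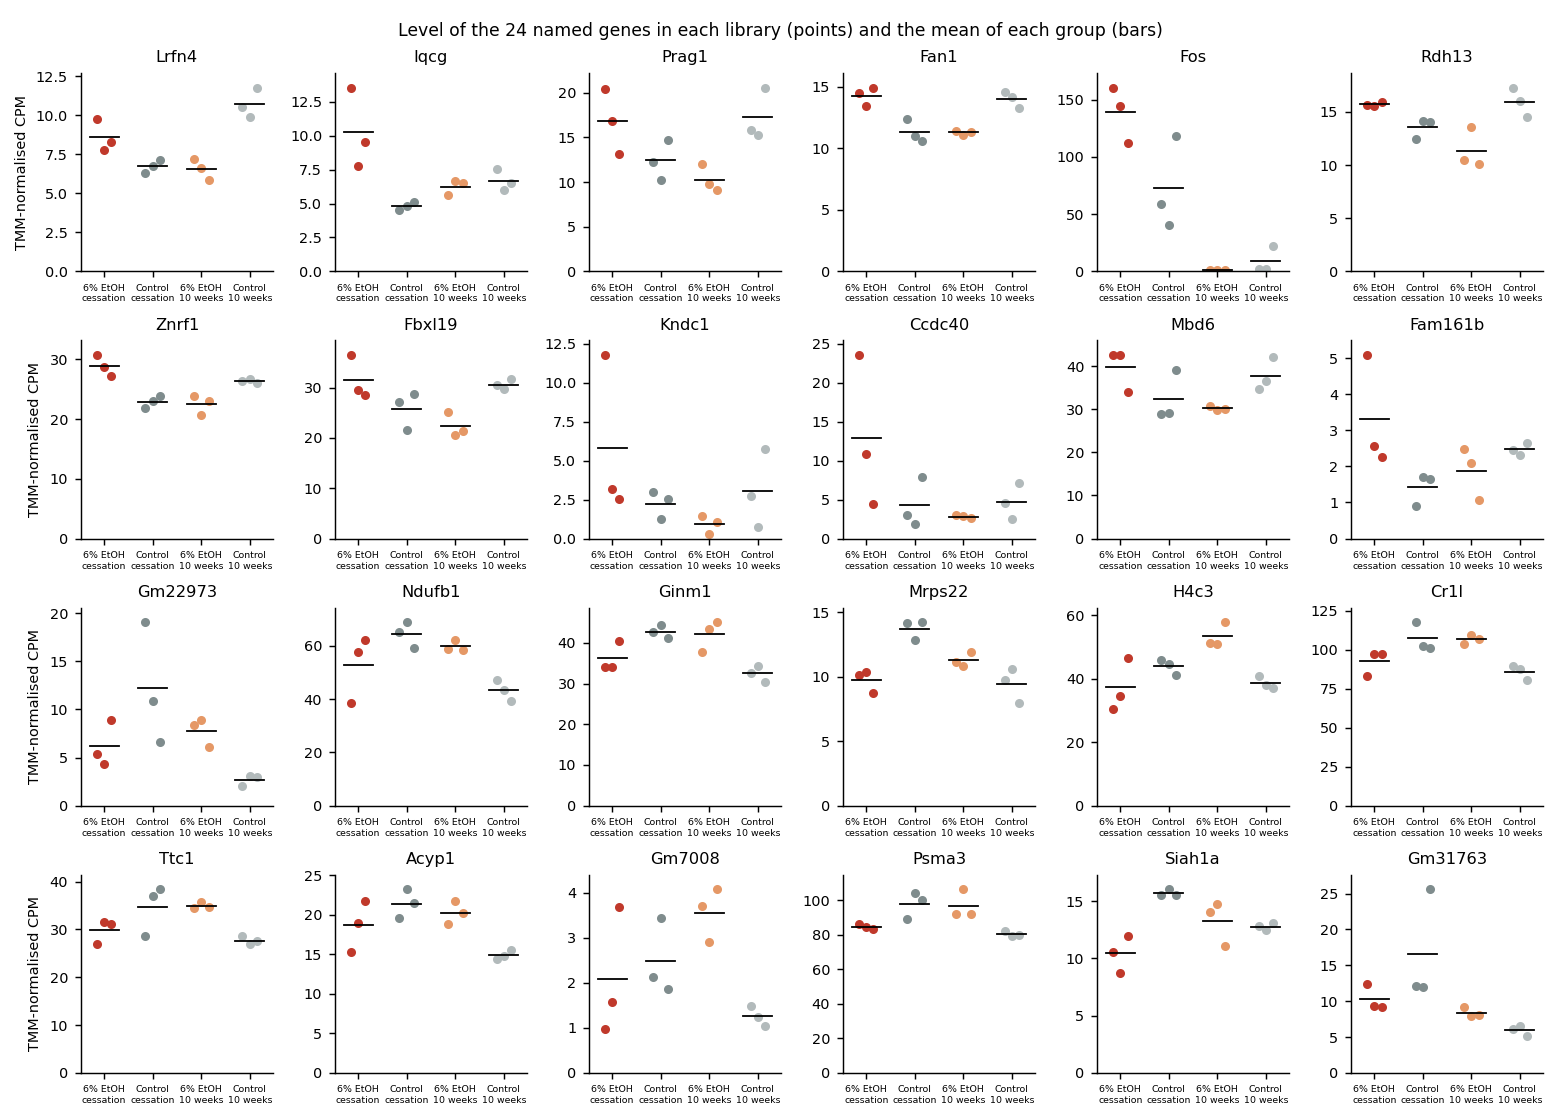
Each panel is 1 of the 24 named genes, with the level in CPM on the y axis, the points being libraries and the bars group means (3 a group). In the upper 2 rows the 6% EtOH mean lies above the control mean after cessation and below it at 10 weeks, and Fos in control 10 weeks has 1 library at 22.4 CPM.

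**Figure D3:**
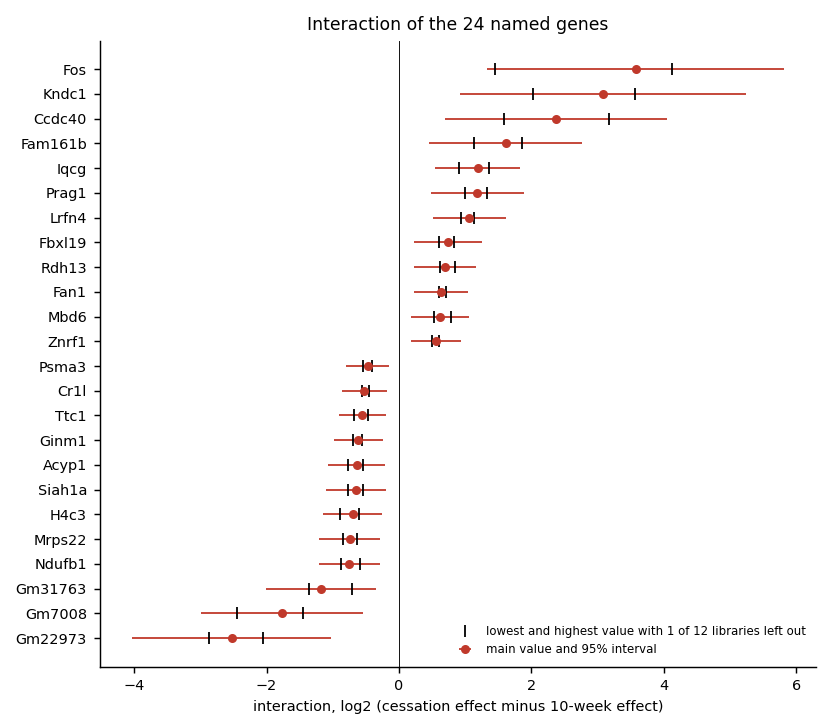
Points give the interaction of each named gene on the log2 scale with its 95% interval, and the ticks the lowest and highest value when 1 of the 12 libraries was left out. Fos extends from 1.45 to 4.12 over those fits.

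The list with the highest median was that of ciliated efferent duct cells, 22 markers of which 22 were tested. All 22 lay above 0 (50.2% of all genes did), with a median of 1.46 against 0.00 over all genes, and 8 had an unadjusted p under 0.05 on the higher side (1.56% of all genes did). The medians of the effects were 1.01 after cessation and -0.46 at 10 weeks. None of the 22 passed the threshold. Markers of a list are not independent replicates, and the lists were chosen with earlier results of these data known, so these counts are a description only. Foxj1, the transcription factor that directs motile cilia, had 67.3, 29.3 and 6.70 CPM in 6% EtOH cessation, against 8.90, 3.68 and 24.3 CPM in control cessation. At 10 weeks Foxj1 had 4.21, 4.12 and 7.54 CPM in 6% EtOH, against 11.5, 6.08 and 19.8 CPM in control. The groups overlapped at both times, and the interaction was 2.73 ± 1.01 (SE, edgeR adjusted p = 0.9996).

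Dnah9, an outer arm dynein heavy chain, had 49.3, 14.1 and 4.06 CPM in 6% EtOH cessation, against 5.16, 2.21 and 14.02 CPM in control cessation. The same libraries stood high, and its interaction was 2.63 ± 1.06. Without 6% EtOH cessation replicate 1, Foxj1 came to 1.77 and Dnah9 to 1.29. The summed level of the list ran from 165 to 607 CPM in 6% EtOH cessation, 128 to 276 in control cessation, 156 to 187 in 6% EtOH 10 weeks and 171 to 255 in control 10 weeks. The median came to 0.65 without 6% EtOH cessation replicate 1, to 1.95 without control cessation replicate 3, and to 1.22 with trends of length and GC content removed. Other lists also varied between the cessation libraries, as mean log2 levels relative to the 12 libraries. They did not follow the ciliated list throughout: in control cessation replicate 1 the ciliated list was at -0.26. Endothelial markers (16 of 16 tested) were at 1.62, 0.81 and -0.41 in 6% EtOH cessation, against 0.85, -0.92 and 1.72 in control cessation. Smooth muscle markers (19 of 20 tested) were at 1.21, 0.46 and 0.05 in 6% EtOH cessation, against 0.75, -0.65 and 1.18 in control cessation. Distal caput genes ran the other way, at -0.70, -0.02 and 0.12 in 6% EtOH cessation, against -0.12, 0.35 and -0.59 in control cessation. The endothelial interaction median was -0.06 (8 of 16 above 0) and that of smooth muscle -0.16 (7 of 19), and both turned sign when single cessation libraries were left out, from -0.65 to 0.61 and from -0.70 to 0.30. The part of these cells in the ciliated values was not tested. In bulk RNA, more cells of a type and more RNA per cell cannot be told apart. Whether the amount of efferent duct in the dissected samples differed was not tested.

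**Figure D4:**
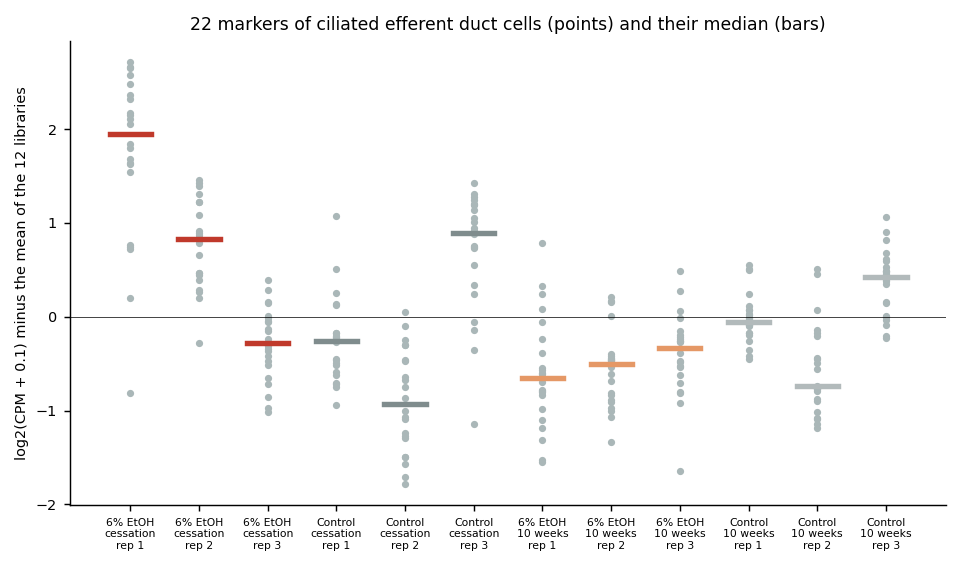
Points are the 22 ciliated cell markers in each of 12 libraries, as log2(CPM + 0.1) minus the mean of the libraries, and bars are their median. 6% EtOH cessation replicates 1 and 2 and control cessation replicate 3 lie highest, while 6% EtOH cessation replicate 3 lies near the controls.

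Promoter sequence is shown for the named genes Iqcg, Ccdc40 and Fos and for Fosb, from RefSeq on build GRCm38.p6. It covers 250 bases before to 50 after the start, while the counts were made on GRCm39. Capitals mark GTTGCC, a part of the X-box bound by RFX factors of ciliary genes, for Iqcg and Ccdc40, and TGACGT, a part of the cAMP response element, for Fos and Fosb, on either strand. Iqcg is at chr16:33056137-33056436 (minus strand), Ccdc40 at chr11:119228322-119228621 (plus), Fos at chr12:85473640-85473939 (plus) and Fosb at chr7:19309996-19310295 (minus).
Iqcg: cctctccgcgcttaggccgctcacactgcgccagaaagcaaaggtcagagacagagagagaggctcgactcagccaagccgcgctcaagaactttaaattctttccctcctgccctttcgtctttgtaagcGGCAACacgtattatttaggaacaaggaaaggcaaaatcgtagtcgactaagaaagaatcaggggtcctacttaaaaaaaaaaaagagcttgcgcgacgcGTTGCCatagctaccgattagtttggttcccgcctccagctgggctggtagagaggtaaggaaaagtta
Ccdc40: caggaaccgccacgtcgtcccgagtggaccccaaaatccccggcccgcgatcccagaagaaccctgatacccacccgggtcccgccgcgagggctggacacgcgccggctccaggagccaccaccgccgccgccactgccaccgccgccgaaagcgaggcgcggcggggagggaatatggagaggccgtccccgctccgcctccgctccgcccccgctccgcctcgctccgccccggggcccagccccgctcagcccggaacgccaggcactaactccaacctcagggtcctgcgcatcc
Fos: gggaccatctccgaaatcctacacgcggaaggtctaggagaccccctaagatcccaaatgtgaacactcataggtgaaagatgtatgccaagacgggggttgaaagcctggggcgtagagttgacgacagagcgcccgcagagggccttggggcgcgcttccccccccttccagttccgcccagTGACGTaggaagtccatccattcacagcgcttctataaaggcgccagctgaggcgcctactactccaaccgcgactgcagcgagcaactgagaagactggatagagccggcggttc
Fosb: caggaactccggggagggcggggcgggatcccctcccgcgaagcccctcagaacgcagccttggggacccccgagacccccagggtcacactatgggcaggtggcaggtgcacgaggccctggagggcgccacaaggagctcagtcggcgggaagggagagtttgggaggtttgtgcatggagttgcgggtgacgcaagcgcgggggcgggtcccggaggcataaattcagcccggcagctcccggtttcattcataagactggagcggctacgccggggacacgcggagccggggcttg
GTTGCC occurred in 6 of the 16 ciliated list members with a window (37.5%) and in 14.1% of 27025 genes. Iqcg is not on that list and is not among the 6. TGACGT occurred in 4 of 10 AP-1 list members with a window (40%) and in 8.37% of genes. Ccdc40 and Fosb held no match in this window.

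The AP-1 list had 7 of 11 members above 0 and a median of 0.26, with 2 members, Fos and Fosb, at an unadjusted p under 0.05 on the higher side (1.56% of all genes). Fosb had 188, 151 and 129 CPM in 6% EtOH cessation, against 64.1, 42.8 and 125 CPM in control cessation. At 10 weeks Fosb had 0.956, 0.697 and 0.401 CPM in 6% EtOH, against 0.513, 0.507 and 10.9 CPM in control. Its interaction was 3.51 ± 1.20 (SE), and 0.59 without control 10 weeks replicate 3. Jun was at 0.90 ± 0.52 and Jund at 0.27 ± 0.30. The median of the list came to -0.08 without control cessation replicate 2 and 1.06 without control cessation replicate 3.

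Genes of the mitochondrial respiratory chain lay mostly below 0. Complex I, which passes electrons from NADH to ubiquinone, had 6 of 38 members above 0 and a median of -0.19, and complexes II to V had 7 of 44 above 0 and a median of -0.22. Beside Ndufb1, the lowest p in these lists belonged to Uqcrc2, a core subunit of complex III, at -0.37 ± 0.16, and Ndufb6 at -0.48 ± 0.20. The median 6% EtOH effect was 0.17 for complex I and 0.15 for complexes II to V at 10 weeks, and 0.00 and -0.05 after cessation. With trends of length and GC content removed the medians of the interaction were -0.04 and -0.01.

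The 12 tested genes encoded on the mitochondrial genome all lay below 0, with a median of -0.49. mt-Nd1, a complex I subunit, had 1751, 1386 and 4128 CPM in 6% EtOH cessation, against 4036, 2950 and 2486 CPM in control cessation. At 10 weeks mt-Nd1 had 1614, 1934 and 1403 CPM in 6% EtOH, against 1235, 1176 and 1632 CPM in control. The groups overlapped at both times, and the interaction was -0.68 ± 0.63, from -1.30 to -0.40 as 1 library was left out. The median came to -0.16 without 6% EtOH cessation replicate 2 and -1.12 without replicate 3, and to -0.09 with length and GC content removed. The mitochondrial ribosome had 17 of 77 members above 0 (median -0.17) and the cytosolic ribosome 20 of 89 (median -0.14). With length and GC content removed these were 25 of 77 (median -0.14) and 39 of 89 (median -0.05), and without 6% EtOH cessation replicate 1 the medians were -0.07 and -0.08.

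Among genes of the caput epithelium, the initial segment list had 4 of 23 tested members above 0 and a median of -0.42. Lcn10, a secreted lipocalin of that list, was at -0.73 ± 0.45, and at -0.45 without 6% EtOH cessation replicate 1. The distal caput list had 6 of 21 above 0 (median -0.21). In it Crisp1, a secreted protein that binds sperm, had 225, 449 and 458 CPM in 6% EtOH cessation, against 597, 982 and 198 CPM in control cessation. At 10 weeks Crisp1 had 659, 733 and 626 CPM in 6% EtOH, against 436, 516 and 318 CPM in control, and its interaction was -1.32 ± 0.60, or -0.74 without control cessation replicate 2. The beta-defensins, antimicrobial and sperm-coating peptides, had 7 of 32 tested members above 0 (median -0.33), and 12 of the 44 in the tables did not pass the filter on low counts. With length and GC content removed, 17 of 32 beta-defensins lay above 0 and the median was 0.02. Their median came to -0.15 without 6% EtOH cessation replicate 1 and -0.53 without replicate 3. Without control cessation replicate 2 the initial segment and distal caput medians both came to -0.07.

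Lists of immune and stromal cells were mixed. Macrophage markers had 1 of 19 above 0 (median -0.47), MHC class II genes 1 of 9 (median -0.62) and fibroblast markers 2 of 16 (median -0.49). H2-DMa, which loads peptides onto MHC class II, was at -0.59 ± 0.23, and Lyz2, the macrophage lysozyme, at -1.05 ± 0.50. B cell markers had 5 of 7 tested members above 0 (median 0.47), inflammatory cytokines 11 of 20 (median 0.14) and neutrophil and mast cell markers 1 of 2. The summed macrophage level ran from 401 to 645 CPM in 6% EtOH cessation, 382 to 814 in control cessation, 387 to 417 in 6% EtOH 10 weeks and 321 to 357 in control 10 weeks. Interferon response genes had 7 of 35 above 0 (median -0.37). Psmb8, an immunoproteasome subunit, had 11.7, 11.8 and 8.11 CPM in 6% EtOH cessation, against 40.5, 8.10 and 19.8 CPM in control cessation, so that control cessation replicate 1 stood high. Without that library Psmb8 came to -0.68, Lyz2 to -0.67 and the interferon median to 0.04. The MHC class II, macrophage and fibroblast medians then came to -0.14, -0.27 and -0.29, and that of T and NK cell markers to -0.07, against -0.44 with it. Without 6% EtOH cessation replicate 1 the fibroblast median came to -0.96 and that of MHC class II to -0.72. The inflammatory cytokine median then turned sign, to -0.50.

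Genes of ethanol metabolism were split evenly, 8 of 16 above 0 with a median of -0.02. Cyp2e1, which oxidises ethanol, had 26.6, 7.55 and 2.64 CPM in 6% EtOH cessation, against 2.73, 0.368 and 15.5 CPM in control cessation, and an interaction of 1.79 ± 1.35, or 0.49 without 6% EtOH cessation replicate 1. The median of these genes took the other sign in 4 of 29 alternative fits. Small RNA biogenesis genes had 16 of 26 tested members above 0 (median 0.09, and 0.02 without 6% EtOH cessation replicate 1). Ago1, an Argonaute protein, had 73.4, 75.1 and 74.7 CPM in 6% EtOH cessation, against 66.4, 69.8 and 55.5 CPM in control cessation, with an interaction of 0.44 ± 0.19. The unfolded protein response list had 4 of 29 above 0 (median -0.14, and 0.07 without control cessation replicate 2), and Hspa5, its main chaperone, was at -0.41 ± 0.23.

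**Figure D5:**
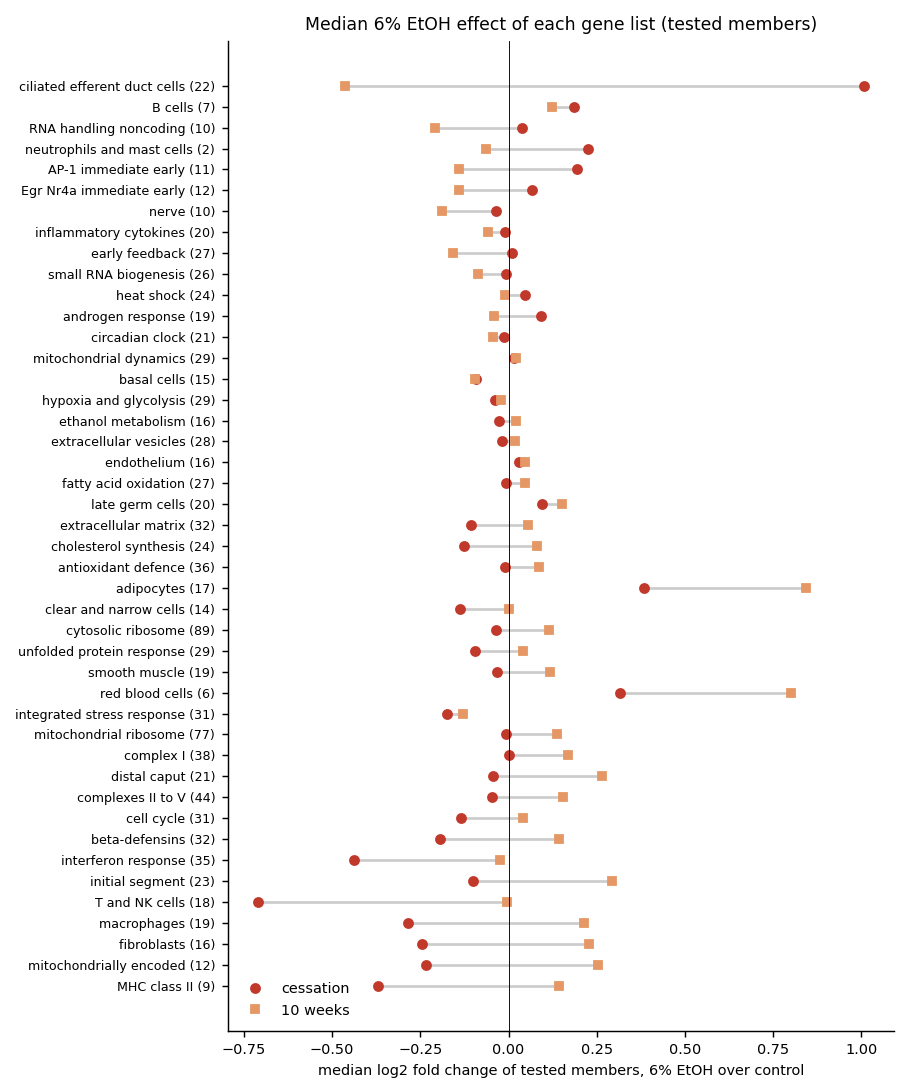
For each of the 44 gene lists, the circle is the median log2 fold change of 6% EtOH over control after cessation and the square that at 10 weeks, with the number of tested members in parentheses. The ciliated cell list has the widest gap, from 1.01 after cessation to -0.46 at 10 weeks.

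The interaction of 6% EtOH was also set against that of 10% EtOH, in which the control libraries cancel. No gene passed (0%, edgeR, smallest adjusted p 0.9997), with 418 (2.25%) at an unadjusted p under 0.05, and DESeq2 and limma voom called 0, with 549 and 379. The ciliated list median of this difference was 1.29 and that of the AP-1 list 1.11, against 0.02 over all genes. Those of endothelial markers (1.23, 15 of 16 above 0), inflammatory cytokines (1.10, 18 of 20) and smooth muscle markers (0.71, 17 of 19) also stood high. That of the beta-defensins was -0.56 (8 of 32 above 0). The 2 interactions share their control libraries. The ciliated list median was 1.46 for 6% EtOH and 0.25 for 10% EtOH, and Iqcg was at 1.19 and 1.20. For 10% EtOH, Lrfn4 was at 1.05, Fos at 2.94, Mrps22 at -0.70 and Psma3 at -0.52, while Rdh13 was at 0.22. The 10% EtOH medians were -0.51 for mitochondrially encoded genes, -0.41 for the initial segment, -1.01 for macrophages and -1.05 for interferon response genes. The AP-1 and beta-defensin medians took the other sign, at -0.47 and 0.26. Such values were thus not all particular to 6% EtOH.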

How the data were processed

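Caput epididymis RNA was sequenced on Illumina HiSeq after extraction with the Qiagen RNeasy mini kit, per the labels' protocols. The authors deposited raw read counts per gene, 1 table per library, made with Trimmomatic, STAR and featureCounts on GRCm39, per the submitters' processing notes; versions, annotation, strand setting and treatment of multi-mapping reads were not stated in the sources read. Antisense, overlapping and duplicated genes are therefore uncertain. Genes were kept by edgeR's filterByExpr (minimum count 10, total 15). The robust quasi-likelihood test of edgeR 4.0.16 (R 4.3.3) was fitted to all 18 libraries with 1 term per group and TMM factors, and p-values were adjusted by Benjamini-Hochberg over 18618 genes, threshold 0.05. DESeq2 1.42.0 and limma 3.58.1 (voom) were alternatives. CPM are TMM-normalised. The fit was run on simulated data with the same spread in every group. Its behaviour at the unequal spreads of these groups was not tested. Genes were named by the p rule given in the text, and up to 4 members of smallest p in a list. The members and lists were chosen with earlier results of these data known. No 2 libraries of a group agreed within counting noise (lowest chi-square per degree of freedom 5.35). Transcript length and GC content came from a GRCm38 annotation, for 97.2% of tested genes.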

Additional observations from a re-analysis of the deposited data

Results flagged for a closer look

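In the list of AP-1 immediate early genes, the mean log2 level of each of the 3 libraries of 6% EtOH cessation lay above the mean of control cessation, by 0.92, 0.63 and 0.10. Each of the 3 libraries of 6% EtOH 10 weeks lay below the mean of control 10 weeks, at -0.28, -0.23 and -0.19. The groups overlapped at both times. As levels relative to the mean of the 12 libraries, the 6% EtOH cessation libraries were at 2.13, 1.85 and 1.32, against 1.26, -0.01 and 2.40 in control cessation, where replicate 3 lay above every ethanol library. The 6% EtOH 10 weeks libraries were at -1.65, -1.60 and -1.57, against -1.58, -1.72 and -0.83 in control 10 weeks, where only replicate 3 lay above them all. The difference between the means was 0.78, and it was not tested.

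The androgen response list did the same at a smaller size. The libraries of 6% EtOH cessation lay 0.02, 0.14 and 0.03 above the mean of control cessation, and those of 6% EtOH 10 weeks at -0.01, -0.06 and -0.04 against the mean of control 10 weeks. Here too the groups overlapped. The 6% EtOH cessation libraries were at -0.02, 0.10 and -0.01, against 0.03, 0.10 and -0.25 in control cessation, so that control replicates 1 and 2 lay above ethanol replicates 1 and 3. The 6% EtOH 10 weeks libraries were at 0.02, -0.04 and -0.01, against -0.02, 0.04 and 0.06 in control 10 weeks. The difference was 0.10 and was not tested. These were 2 of 44 lists examined in this way.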

How the results depend on the processing

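No paired analysis was possible because the labels carry no replicate numbers shared between groups. With no filter on low counts edgeR called 88 genes for the interaction (42 higher, 46 lower), 51 after cessation (19 higher, 32 lower), 44 at 10 weeks (29 higher, 15 lower) and 101 for 6% EtOH minus 10% EtOH (82 higher, 19 lower). Of the 88, 87 were also tested with the filter. In that fit 0 genes had a finite prior degree of freedom, so each gene's spread was replaced by the trend, whereas the median with the filter was 5.91. DESeq2 called 1 gene after cessation. Leaving out 6% EtOH cessation replicate 1 and control cessation replicate 2 together, chosen after seeing the data, gave 8 genes after cessation (1 higher, 7 lower), and the cause was not tested. Leaving out each library in turn gave 0 to 0 genes for each comparison, and 352 to 1292 at an unadjusted p under 0.05 for the interaction, the highest without control cessation replicate 3. Removing trends of length and GC content, also chosen after seeing the data, gave 0 for each comparison. Of the named genes' values 690 kept their direction and side of the threshold, and 4, all without the filter, passed it: Fos, Kndc1, Ccdc40 and Gm22973. The named genes were picked to keep their sign in the 12 fits that left out 1 library, so their direction there was fixed by the choice. List medians moved by more than the spread between libraries in 52 of their fits and by less in 1224. In 83 fits, over 27 of the 44 lists, the median took the other sign, and 17 lists kept their sign in each fit. The 3 libraries a group and the higher spread after cessation limit the precision.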

Other observations

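Adipocyte markers had a median 6% EtOH effect of 0.38 after cessation and 0.84 at 10 weeks, and an interaction median of -0.12 with 8 of 17 above 0, from -0.23 to 0.22 as 1 library was left out. Late germ cell markers, a sign of sperm and testicular RNA, had 9 of 20 above 0 for the interaction, with a median of -0.09, from -0.33 to 0.23 as 1 library was left out. Their summed level ran from 349 to 542 CPM in 6% EtOH cessation, 279 to 556 in control cessation, 223 to 350 in 6% EtOH 10 weeks and 210.7 to 325 in control 10 weeks. Cell cycle genes had 10 of 31 above 0 (median -0.24) and cholesterol synthesis genes 3 of 24 (median -0.11), with 2 and 1 at an unadjusted p under 0.05 on the lower side (1.45% of all genes were). Without control cessation replicate 2 the medians came to -0.02 for cell cycle genes and 0.16 for cholesterol synthesis genes, and the second came to -0.37 without control cessation replicate 3.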
